A study of Mus musculus with 24 samples.

Results

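The genes of fatty acid uptake, binding and activation were followed across 8 groups of cultured primary mouse keratinocytes, which form most of the epidermis. The list held 10 genes: the uptake genes Cd36 and Slc27a1, the carrier genes Fabp3, Fabp4 and Fabp5, and the activation genes Acsl1, Acsl3, Acsl4, Acsl5 and Acsbg1. Each gene was represented by the probe set with its symbol alone and the highest mean over the arrays, which gave 8 measured genes among 19937 genes in all. Acsl1 and Acsl3 had no probe set of their own in the platform annotation used here. Changes below are log2 differences ± standard error from a limma fit of all 24 arrays with n = 3 arrays per group. A change is called when its p lies under 0.05 after Benjamini-Hochberg adjustment across the 19937 genes.

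All cells were C57/BL6 by label and differed in genotype, virus and ligand. The groups with the Ppar-beta NULL genotype, which lack the nuclear receptor encoded by Ppard, were transduced with an activated Hras retrovirus for 48 hours or mock transduced. Each of these received 1 uM GW0742, a synthetic PPAR-beta agonist, for 24 hours, or the vehicle DMSO. Wild-type (WT) cells were handled the same way, which made 8 groups of 3 arrays of total RNA. Nothing in the labels ties replicates to separate animals or cultures, so the p-values reflect array-to-array spread alone and that spread may be technical.

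Long-chain fatty acids enter cells with the help of membrane proteins such as CD36 and the FATP proteins of the Slc27 family. Inside, small fatty acid binding proteins (FABPs) carry them through the cytosol and to the nucleus, where FABP5, the epidermal form, can deliver them to PPAR-beta. Acyl-CoA synthetases then join them to coenzyme A, which holds them in the cell and opens the routes to oxidation, lipid droplets, phospholipids and the ceramides of the skin barrier. Several of these genes are known PPAR targets in fat, muscle or liver.

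Of 10 keratinocyte markers, 9 lay above the array median on all 24 arrays. Krt5 lay between 13.98 and 14.30 and Krt14 between 13.94 and 14.15 log2 units. Krt1 (7.1 to 13.9) and Krt10 (7.8 to 13.1) ranged widely. Fabp4 and Cd36 are also expressed by adipocytes, endothelial cells and macrophages. Of the markers of these cells, 4 of 7 for adipocytes, 4 of 8 for endothelial cells and 5 of 8 for macrophages and leukocytes lay under the array median on all 24 arrays. Lipe, Vwf, Flt1 and Cd68 lay above it on all 24, with Flt1 between 8.37 and 9.93 and Cd68 between 9.29 and 10.75. Adipoq (4.93 to 5.33), Adgre1 (5.21 to 5.65) and Emcn (4.86 to 5.54) were among those under the array median, which was 7.46 to 7.53. Melanocyte genes were clearly present, with Dct between 10.68 and 12.01. Of 8 fibroblast markers, 4 lay above the array median on all 24 arrays, with Vim between 11.94 and 13.33 and Col1a1 between 9.36 and 11.55. The 1 under it on all arrays was Lum. The targeted gene Ppard averaged 10.62 ± 0.02 in null mock DMSO cells and 11.19 ± 0.07 in WT mock DMSO cells (SD, n = 3). Which exons were deleted is not stated in the labels, so this level does not by itself test the genotype label.

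Promoters were examined because PPAR-beta binds DNA as a partner of RXR at DR1, a direct repeat of the hexamer AGGTCA with 1 base between. RefSeq promoter sequences of GRCm38.p6, from 250 bases before to 50 after a gene start, were found for 8 of the 10 genes, with 11 promoters in all. No sequence was found for Fabp4 and Fabp5. DR1 was searched on both strands with up to 2 mismatches, and 3.86% of all 32851 promoters held a match. The exact hexamer AGGTCA, which a DR1 match can contain, was held by 16.3% and the AP-1 letters TGANTCA by 7.81%. Of the 11 promoters only that of Cd36 held a DR1 match or a hexamer, and none held the AP-1 letters. The promoters of Acsbg1, whose RNA rose with the ligand, and of Cd36 are shown for comparison, with the DR1 match and the hexamer in capitals.
Acsbg1 (chr9:54661836-54662135, minus strand): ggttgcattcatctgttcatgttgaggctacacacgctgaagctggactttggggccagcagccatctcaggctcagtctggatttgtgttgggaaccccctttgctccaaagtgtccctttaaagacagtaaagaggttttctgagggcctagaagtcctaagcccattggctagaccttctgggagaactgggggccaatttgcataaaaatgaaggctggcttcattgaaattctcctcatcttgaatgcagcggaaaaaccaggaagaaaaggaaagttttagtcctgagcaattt
Cd36 (chr5:17835847-17836146, minus strand): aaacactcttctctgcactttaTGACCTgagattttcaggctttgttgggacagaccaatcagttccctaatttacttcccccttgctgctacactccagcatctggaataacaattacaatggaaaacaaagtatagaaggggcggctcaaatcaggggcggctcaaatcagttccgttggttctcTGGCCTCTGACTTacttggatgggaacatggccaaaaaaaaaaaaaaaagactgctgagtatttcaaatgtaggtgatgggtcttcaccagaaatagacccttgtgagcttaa
The Cd36 match lay at position -63 from the gene start, on the opposite strand, and differed from the DR1 letters at 2 bases. The Acsbg1 window held none of the letters searched, which says nothing about sites elsewhere in the gene.

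The first comparison asked which genes answered the ligand. In null Hras cells 3 of the 8 genes were called higher, against 3.51% of all genes, and 1 lower, against 1.51% (5.02% either way). In WT Hras cells 2 were called higher (background 4.46%) and 0 lower (1.65%), against 6.11% either way. In null mock cells 0 of 8 were called by limma, as for all genes (0%), and 1 of 8 had an unadjusted p under 0.05. The share of all genes at that unadjusted threshold was not counted. In WT mock cells 2 were called higher (1.25%) and 0 lower (1.61%), against 2.86% either way. The called genes in WT cells were Fabp4 and Acsbg1 with either virus state. The GW0742 and DMSO arrays did not overlap for 4 of 8 genes in null Hras cells (15.1% of all genes), 4 in WT Hras cells (22.3%), 0 in null mock cells (13.4%) and 7 in WT mock cells (24.8%). The median change of the 8 genes was 0.14 in null Hras, -0.04 in WT Hras, -0.01 in null mock and 0.15 in WT mock cells, where the median of all genes lay between -0.01 and 0.00.

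**Figure D1:**
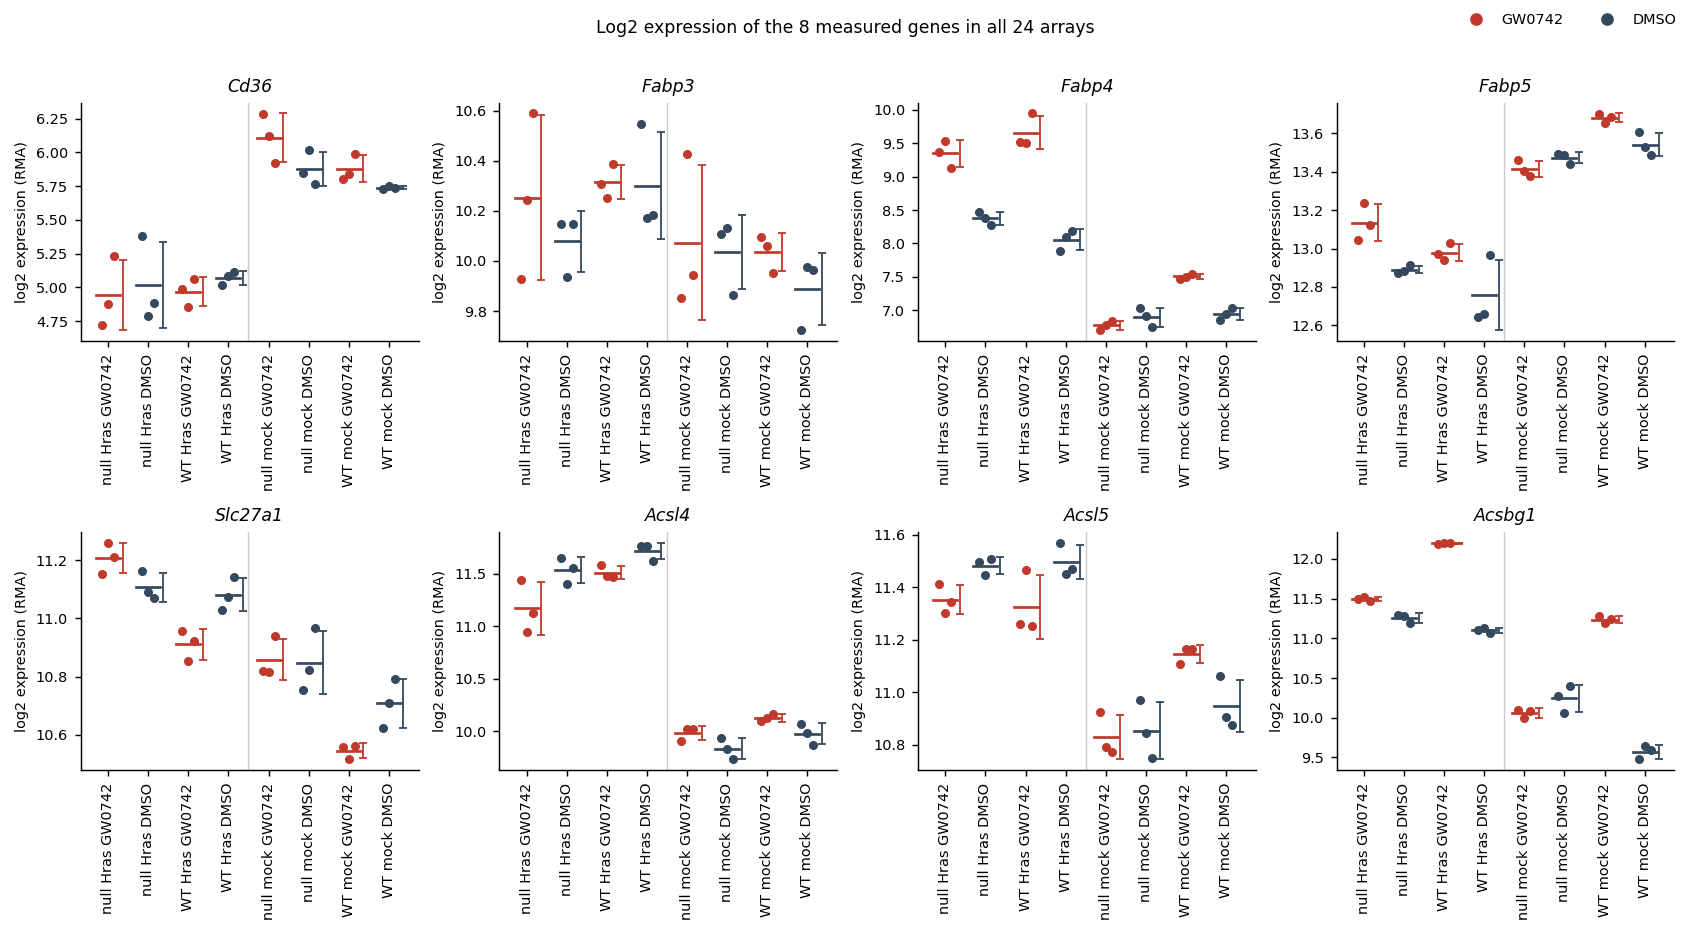
Log2 expression (vertical axes, RMA values) of the 8 measured genes on each of the 24 arrays, in 8 groups along the horizontal axes with Hras groups left and mock groups right of the grey line. Points are arrays, bars group means and whiskers SD (n = 3), red for GW0742 and dark blue for DMSO. Acsbg1 reached 12.19 in WT Hras GW0742 cells, and Fabp4 lay at 9.13 or above on all Hras GW0742 arrays of both genotypes.

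Cd36 encodes a scavenger receptor that helps move fatty acids across the plasma membrane. Its probe set was dim, between 4.72 and 6.28 on all arrays and so under the array medians. With GW0742 it measured 4.72, 4.88 and 5.23 in null Hras cells, against 5.38, 4.79 and 4.89 with DMSO. WT Hras cells gave 4.99, 4.85 and 5.06 with GW0742, against 5.01, 5.09 and 5.11 with DMSO. These arrays overlapped in both genotypes. In null mock cells the values were 6.28, 6.12 and 5.92 with GW0742, against 5.85, 6.01 and 5.77 with DMSO. In WT mock cells they were 5.80, 5.84 and 5.99 with GW0742, against 5.73, 5.75 and 5.73 with DMSO. The WT mock groups did not overlap, but the difference of 0.14 ± 0.13 was not called (adjusted p = 0.760), with a 95% interval from -0.13 to 0.41. No GW0742 effect on Cd36 was called in any of the 4 settings.

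Slc27a1 encodes FATP1, a transport protein that also has acyl-CoA synthetase activity. In null Hras cells it measured 11.15, 11.26 and 11.21 with GW0742, against 11.16, 11.09 and 11.07 with DMSO. WT Hras cells gave 10.96, 10.85 and 10.92 with GW0742, against 11.03, 11.07 and 11.14 with DMSO. The WT Hras arrays did not overlap and the null ones did. In WT mock cells the values were 10.56, 10.52 and 10.56 with GW0742, against 10.62, 10.71 and 10.79 with DMSO, and here too the groups did not overlap. Differences were -0.17 ± 0.06 in WT Hras cells (adjusted p = 0.103) and -0.16 ± 0.06 in WT mock cells (adjusted p = 0.183), neither called. The WT Hras difference passed with trend and robust moderation (adjusted p = 0.0471) and without the dimmest 40% of genes (0.0495). In null cells the differences were 0.10 ± 0.06 with Hras and 0.01 ± 0.06 in mock cells.

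Fabp4, the adipocyte form of the carriers, was called higher with GW0742 in 3 of the 4 settings. In null Hras cells it measured 9.37, 9.54 and 9.13 with GW0742, against 8.47, 8.38 and 8.28 with DMSO. WT Hras cells gave 9.52, 9.51 and 9.94 with GW0742, against 7.88, 8.10 and 8.18 with DMSO. Every GW0742 array with Hras thus lay above every DMSO array, in either genotype. In null mock cells it measured 6.70, 6.77 and 6.85 with GW0742, against 7.03, 6.91 and 6.74 with DMSO. In WT mock cells it measured 7.47, 7.50 and 7.55 with GW0742, against 6.86, 6.94 and 7.03 with DMSO. The null mock groups overlapped and the WT mock groups did not.

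Fabp4 rose by 0.97 ± 0.11 in null Hras cells (1.96-fold, adjusted p = 4.96e-05) and by 1.60 ± 0.11 in WT Hras cells (3.04-fold, adjusted p = 2.14e-09). In WT mock cells it rose by 0.56 ± 0.11 (1.48-fold, adjusted p = 0.0053), and in null mock cells the difference was -0.12 ± 0.11 (adjusted p = 0.939). For scale, Pdk4, a known PPAR-beta target, measured 0.29 ± 0.08 in null Hras cells and 5.83 ± 0.08 in WT Hras cells, and Angptl4, another, measured -0.37 ± 0.11 and 2.34 ± 0.11. Both null Hras values were called (adjusted p = 0.0432 for Pdk4 and 0.0471 for Angptl4), and both calls were lost with only the 6 arrays compared (0.339 and 0.479). The difference between the ligand effects, null minus WT, was -0.64 ± 0.16 for Fabp4 in Hras cells (adjusted p = 0.0412) and -0.68 ± 0.16 in mock cells (adjusted p = 0.0402). The mock difference was lost in 11 of 12 refits with an array left out, with adjusted p up to 0.141, and was kept only without null mock DMSO replicate 3. The Hras difference was lost in 6 of 12, without WT Hras GW0742 replicate 3, WT Hras DMSO replicate 1 or 2, null Hras GW0742 replicate 3, or null Hras DMSO replicate 1 or 2, with adjusted p up to 0.119, and with only the arrays compared (0.267). With the replicate number as a block the adjusted p was 0.0578 in Hras and 0.0591 in mock cells. In these tests 2 of the 8 genes were called lower in Hras cells, where 0.517% of all genes were called higher and 1.21% lower (1.73% either way). In mock cells 2 were called lower, against 0.286% higher and 0.562% lower (0.848%).

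The Fabp4 effect in WT cells was larger with Hras than in mock cells by 1.04 ± 0.16 (adjusted p = 0.00056). This was the 1 gene of 8 called higher in that test (background 2.05%), and 2 were called lower (0.421%), against 2.47% either way.

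The rise of Fabp4 in null Hras cells was called when any 1 of its 6 arrays was left out, but not with only those 6 arrays in the model (adjusted p = 0.0661). Residuals varied more on the null Hras GW0742 arrays, with a per-gene median SD of 0.122, than in the other groups, with 0.0647 to 0.0798. The summed linear signal of 7 adipocyte markers, as log2, was 10.67 to 10.89 in null Hras GW0742 cells and 10.57 to 10.68 in null Hras DMSO cells. In WT Hras cells it was 10.56 to 10.72 with GW0742 and 10.35 to 10.44 with DMSO. Of these 7 markers 0 were called in null Hras cells and 1, Lipe, in WT Hras cells. Macrophage and leukocyte markers summed to 10.85 to 11.16 in null Hras GW0742 cells and 10.41 to 10.64 in null Hras DMSO cells, with Cd68 the 1 called of 8. Melanocyte markers summed to 13.13 to 13.44 in null Hras GW0742 cells and 12.78 to 12.92 in null Hras DMSO cells. Of these, 5 of 8 were called higher, against 3.51% of all genes. A sum gives most weight to the brightest marker of a list, such as Cd68 (9.29 to 10.75). Means of log2 values weigh each marker alike. In null Hras cells they were 7.03 to 7.37 with GW0742 and 7.08 to 7.15 with DMSO for adipocyte markers. For macrophage and leukocyte markers they were 6.62 to 6.84 and 6.63 to 6.73, and for melanocyte markers 9.44 to 9.64 and 9.16 to 9.27. Of these lists only the melanocyte ranges did not overlap. The keratinocyte means did not overlap either, at 12.05 to 12.23 with GW0742 and 11.93 to 11.99 with DMSO. Of 10 keratinocyte markers 2 were called higher and 0 lower, against 3.51% and 1.51% of all genes. The part of adipocytes, macrophages, melanocytes and keratinocytes in the Fabp4 result was not tested. In bulk RNA fewer cells of a type and less RNA per cell cannot be told apart.

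Fabp5, the epidermal carrier, had 2 probe sets that both fell with Hras and are compared further on. On the brighter one it measured 13.04, 13.24 and 13.12 in null Hras GW0742 cells, against 12.88, 12.88 and 12.91 in null Hras DMSO cells. The WT Hras values were 12.97, 12.94 and 13.03 with GW0742, against 12.64, 12.66 and 12.97 with DMSO, where replicate 3 stood apart. The change was called in null Hras cells (0.24 ± 0.07, adjusted p = 0.0382) and missed the threshold in WT Hras cells (0.22 ± 0.07, adjusted p = 0.0556). Without WT Hras DMSO replicate 3 the WT Hras change was 0.33 and was called (adjusted p = 0.000661). It was also called with centred arrays (0.0434), with trend and robust moderation (0.0189), without the dimmest 40% of genes (0.0258) and in a model without the null Hras GW0742 arrays (0.0402). With another array left out its adjusted p reached 0.288. On the dimmer probe set the WT Hras change was 0.09 ± 0.07 and not called (adjusted p over all probe sets = 0.675). The difference was -0.06 ± 0.07 in null mock cells and 0.14 ± 0.07 in WT mock cells, neither called. On the brighter probe set no difference between genotypes was called in Hras cells (0.02 ± 0.10, 95% interval -0.18 to 0.22) or in mock cells (-0.20 ± 0.10, 95% interval -0.40 to 0.00). On the dimmer one the difference in Hras cells was larger, at 0.24 ± 0.10, and not called either (adjusted p over all probe sets = 0.488).

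Fabp3, the heart-type carrier, had no called ligand effect in any setting, with differences of 0.18 ± 0.15 in null Hras, 0.01 ± 0.15 in WT Hras, 0.04 ± 0.15 in null mock and 0.15 ± 0.15 in WT mock cells. Its arrays overlapped in all 4.

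Acsbg1, the bubblegum acyl-CoA synthetase, was the activation gene called higher with the ligand. It measured 11.50, 11.52 and 11.46 in null Hras GW0742 cells, against 11.30, 11.28 and 11.19 in null Hras DMSO cells. The WT Hras values were 12.18, 12.19 and 12.20 with GW0742, against 11.11, 11.13 and 11.07 with DMSO. The groups did not overlap in either genotype, and the gap was wider in WT cells. In null mock cells it measured 10.10, 9.99 and 10.09 with GW0742, against 10.27, 10.06 and 10.40 with DMSO. In WT mock cells it measured 11.28, 11.19 and 11.25 with GW0742, against 9.47, 9.65 and 9.59 with DMSO.

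Acsbg1 rose by 1.09 ± 0.06 in WT Hras cells (2.13-fold, adjusted p = 2.18e-10) and by 1.66 ± 0.06 in WT mock cells (3.17-fold, adjusted p = 2.64e-13). In null Hras cells it rose by 0.24 ± 0.06 (1.18-fold, adjusted p = 0.035), and in null mock cells the difference was -0.19 ± 0.06 (adjusted p = 0.878, unadjusted p = 0.00981). The ligand effect was smaller in null than in WT cells, with a null minus WT difference of -0.85 ± 0.09 with Hras (adjusted p = 6.37e-06) and -1.85 ± 0.09 in mock cells (adjusted p = 4.04e-11). In WT cells it was smaller with Hras than in mock cells, a difference of -0.57 ± 0.09 (adjusted p = 0.00102), the opposite sign to Fabp4. These 3 differences were called in all refits with an array left out.

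Acsl4, a synthetase that prefers arachidonic acid, measured 11.44, 10.94 and 11.12 in null Hras GW0742 cells, against 11.64, 11.40 and 11.55 in null Hras DMSO cells. The groups overlapped, and the fall of -0.36 ± 0.09 was called (adjusted p = 0.0252). This call was lost in 4 of 6 refits with an array left out (adjusted p up to 0.213) and with only the arrays compared (0.439). Its WT Hras values were 11.58, 11.48 and 11.47 with GW0742, against 11.76, 11.76 and 11.62 with DMSO, a difference of -0.20 ± 0.09 that was not called (adjusted p = 0.268). In mock cells the differences were 0.15 ± 0.09 in both genotypes, with adjusted p = 0.913 in null and 0.550 in WT cells. Acsl5, a synthetase linked to mitochondria and the endoplasmic reticulum, had no called ligand effect with all arrays, with differences of -0.13 ± 0.07 in null Hras, -0.17 ± 0.07 in WT Hras, -0.02 ± 0.07 in null mock and 0.20 ± 0.07 in WT mock cells. Without WT Hras GW0742 replicate 2 the WT Hras difference was -0.24 and called (adjusted p = 0.0474). The ligand effect on Acsl5 in WT cells differed by -0.37 ± 0.10 between Hras and mock cells (adjusted p = 0.043), and this call was lost in 10 of the 12 refits with an array left out (adjusted p up to 0.141), with centred arrays (0.0807) and with only the arrays compared (0.0695). With an array left out it was kept only without WT mock DMSO replicate 1 and without WT Hras GW0742 replicate 2.

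With only the 6 null Hras arrays in the model limma called 0 of the 8 genes and 0 of all 19937, with 4 of 8 and 1763 of all genes at an unadjusted p under 0.05. Of the 8 genes 1 was called without null Hras DMSO replicate 1 or 3 (601 and 855 of all genes, against 1001 with all arrays) or GW0742 replicate 2 or 3 (393 and 685). Without null Hras DMSO replicate 2 there were 2 (812 of all genes), and without GW0742 replicate 1 there were 4 (2539). Centring the arrays left 2 (887 of all genes), as the calls of Fabp5 (adjusted p = 0.0720) and Acsbg1 (0.0843) were lost.

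**Figure D2:**
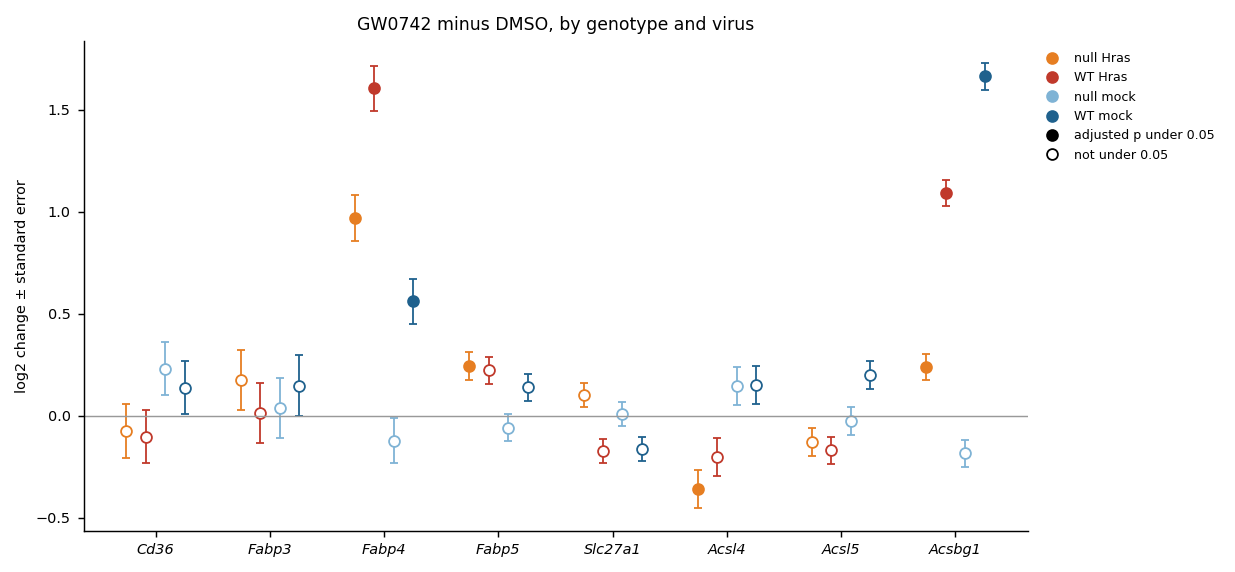
GW0742 minus DMSO (vertical axis, log2 change ± standard error, n = 3 arrays per group) for the 8 genes along the horizontal axis, in null Hras, WT Hras, null mock and WT mock cells from left to right. Filled points passed at an adjusted p under 0.05, open points did not. Fabp4 stands at 0.97 in null Hras and 1.60 in WT Hras cells, whereas Acsbg1 stands at 0.24 and 1.09.

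The next comparison set Hras against mock cells in DMSO. In null cells 5 of the 8 genes were called higher, against 20.2% of all genes, and 2 lower, against 20.5% (40.7% either way). In WT cells 6 were called higher, against 18.4%, and 2 lower, against 19% (37.4% either way). The activation genes were all higher, while Cd36 and Fabp5 were lower in both genotypes. The groups did not overlap for 7 of 8 genes in null cells, where 48.9% of all genes had no overlap, and for 8 of 8 in WT cells, where it was 49.5%. The median change of the 8 genes was 0.44 in null cells and 0.48 in WT cells, with a median of all genes of 0.00 and 0.02.

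Acsl4 had the largest change of the 8. It measured 11.64, 11.40 and 11.55 in null Hras cells, against 9.94, 9.83 and 9.73 in null mock cells, a rise of 1.70 ± 0.09 (3.25-fold, adjusted p = 2.24e-12). In WT cells it measured 11.76, 11.76 and 11.62 with Hras, against 10.07, 9.98 and 9.87 in mock cells, a rise of 1.74 ± 0.09 (3.34-fold, adjusted p = 1.6e-12). The difference between genotypes was -0.04 ± 0.13, with a 95% interval from -0.32 to 0.23. Acsl5 rose by 0.63 ± 0.07 in null cells (adjusted p = 9.84e-08) and 0.55 ± 0.07 in WT cells (adjusted p = 8.05e-07).

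Acsbg1 rose by 1.01 ± 0.06 with Hras in null cells (2.02-fold, adjusted p = 2.96e-11) and by 1.53 ± 0.06 in WT cells (2.89-fold, adjusted p = 3.86e-14). The effect was smaller in null cells, a null minus WT difference of -0.52 ± 0.09 (adjusted p = 0.000392), the 1 gene of 8 called in that test (background 8.35% higher, 8.41% lower and 16.8% either way). Null mock cells averaged 10.24 ± 0.17 and WT mock cells 9.57 ± 0.09, while null Hras cells averaged 11.26 ± 0.06 and WT Hras cells 11.10 ± 0.03 (SD, n = 3).

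Fabp4 rose by 1.48 ± 0.11 with Hras in null cells (2.79-fold, adjusted p = 3.84e-10) and by 1.11 ± 0.11 in WT cells (2.16-fold, adjusted p = 3.76e-08). The Hras and mock arrays did not overlap in either genotype. Adipocyte markers summed to 10.57 to 10.68 in null Hras DMSO cells and 10.14 to 10.19 in null mock DMSO cells, and to 10.35 to 10.44 in WT Hras DMSO cells and 10.13 to 10.28 in WT mock DMSO cells. Endothelial markers summed to 10.62 to 10.83 in null Hras and 10.11 to 10.25 in null mock DMSO cells. In WT cells they summed to 10.65 to 10.74 with Hras and 10.13 to 10.20 in mock DMSO cells. In each genotype 3 of 8 were called higher and 1 lower. Over all genes 20.2% were called higher and 20.5% lower in null cells, and 18.4% and 19% in WT cells. Of the 7 adipocyte markers, Pparg and Lipe were called higher with Hras in both genotypes, whereas Adipoq, the defining gene, stayed under the array median throughout, and their part in the Fabp4 rise was not tested.

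Fabp5 fell by 0.58 ± 0.07 in null cells (adjusted p = 2.83e-07) and by 0.78 ± 0.07 in WT cells (adjusted p = 3.31e-09). It measured 12.88, 12.88 and 12.91 in null Hras cells, against 13.49, 13.49 and 13.44 in null mock cells. In WT cells the values were 12.64, 12.66 and 12.97 with Hras, against 13.61, 13.53 and 13.49 in mock cells. The dimmer probe set fell as well, by 0.77 ± 0.07 in null and 0.72 ± 0.07 in WT cells. With Hras 8 of 10 keratinocyte markers were called lower in null cells (20.5% of all genes) and 9 of 10 in WT cells (19%). Their part in the fall of Fabp5 was not tested.

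Cd36 fell by 0.86 ± 0.13 in null cells (adjusted p = 1.15e-05) and by 0.67 ± 0.13 in WT cells (adjusted p = 0.000247), with no overlap between Hras and mock arrays. All 8 melanocyte markers were called lower with Hras in both genotypes, where 20.5% of all genes were called lower in null and 19% in WT cells. The medians of these markers were -0.78 in null and -1.06 in WT cells. Of 8 fibroblast markers 5 were called lower and 1 higher in null cells, and 8 lower in WT cells. Of 8 macrophage and leukocyte markers 1 was called higher and 2 lower in null cells, and 0 higher and 2 lower in WT cells. In each genotype 2 of 7 adipocyte markers were called higher and 0 lower, and 3 of 8 endothelial markers higher and 1 lower. Over all genes 20.2% were called higher in null and 18.4% in WT cells. The part of any of these cell types in the fall of Cd36 was not tested. Slc27a1 rose by 0.26 ± 0.06 in null cells (adjusted p = 0.00102) and 0.37 ± 0.06 in WT cells (adjusted p = 2.24e-05).

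Fabp3 was called higher with Hras in WT cells (0.41 ± 0.15, adjusted p = 0.0319) and not in null cells (0.04 ± 0.15, adjusted p = 0.870). The difference of -0.37 ± 0.21 between genotypes was not called (adjusted p = 0.281). The WT call was lost without WT Hras DMSO replicate 1 (adjusted p = 0.183), without WT mock DMSO replicate 1 (0.141) and on the dimmer probe set (0.16, adjusted p = 0.273).

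**Figure D3:**
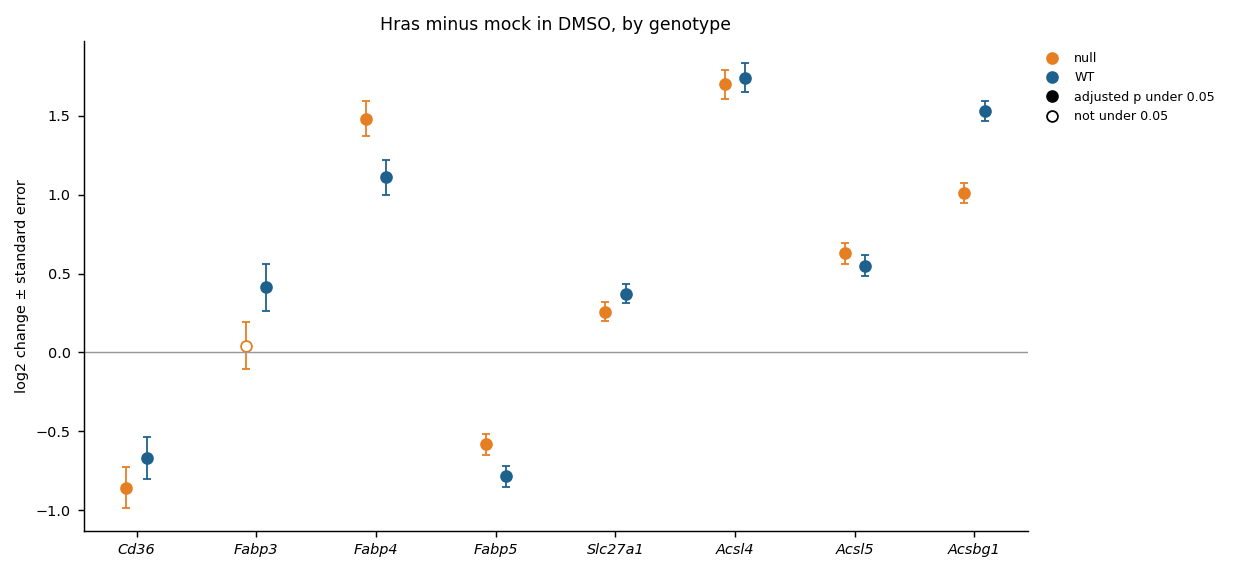
Hras minus mock in DMSO (vertical axis, log2 change ± standard error, n = 3 arrays per group) for the 8 genes along the horizontal axis, with null left of WT. Filled points passed at an adjusted p under 0.05. Acsl4, Acsbg1 and Fabp4 lie above 1 in both genotypes, and Cd36 and Fabp5 lie below 0.

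Null and WT cells were then compared without ligand. In mock cells 1 of the 8 genes was called higher (4.89% of all genes) and 0 lower (5.53%, or 10.4% either way), and 2 of 8 had an unadjusted p under 0.05 in limma. In Hras cells 1 was called higher (10.1%) and 0 lower (9.32%, or 19.4% either way), again with 2 of 8 at an unadjusted p under 0.05. The share of all genes at the unadjusted threshold was not counted, so the unadjusted counts have no background to be read against. The gene called in mock cells was Acsbg1, at 10.27, 10.06 and 10.40 in null cells, against 9.47, 9.65 and 9.59 in WT cells. This was a rise of 0.67 ± 0.06 (1.59-fold, adjusted p = 3.62e-07), and the groups did not overlap. In the same comparison 6 of 8 fibroblast markers (median -0.58) and 4 of 8 melanocyte markers (median -0.27) were called lower in null cells, and their part in the Acsbg1 result was not tested. In Hras cells the Acsbg1 difference was 0.15 ± 0.06 and not called (adjusted p = 0.110). The arrays did not overlap for 2 of 8 genes in mock cells (30.8% of all genes) and 3 of 8 in Hras cells (33.8%). These comparisons share their DMSO arrays with the ligand and Hras effects above.

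The gene called in Hras cells was Fabp4, at 8.47, 8.38 and 8.28 in null cells, against 7.88, 8.10 and 8.18 in WT cells, a rise of 0.32 ± 0.11 (adjusted p = 0.0464). This call was lost without WT Hras DMSO replicate 1 (adjusted p = 0.218) or 2 (0.0765), without null Hras DMSO replicate 1 (0.146), 2 (0.110) or 3 (0.0510), and with the replicate number as a block (0.0588). Without WT Hras DMSO replicate 3 the call was kept and Fabp5 was called as well, at 0.24 (adjusted p = 0.00467). That value is from the brighter Fabp5 probe set, and with all arrays the dimmer one gave -0.09 ± 0.07 for null minus WT, the other sign (adjusted p over all probe sets = 0.494). In mock cells Fabp4 measured -0.05 ± 0.11 between genotypes (adjusted p = 0.852). For Cd36, Fabp3, Slc27a1, Acsl4 and Acsl5 no genotype difference was called in DMSO with either virus state.

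The order of the 8 groups differed from gene to gene. Acsbg1 ran from 9.57 in WT mock DMSO cells to 12.19 in WT Hras GW0742 cells, a span of 2.62. Its levels in WT mock GW0742 cells (11.24 ± 0.04), null Hras DMSO cells (11.26 ± 0.06) and WT Hras DMSO cells (11.10 ± 0.03) were neighbours in that order, and the first of these did not differ from null Hras DMSO cells beyond their SD. Fabp4 spanned 2.88, from 6.77 in null mock GW0742 cells to 9.66 in WT Hras GW0742 cells. Its null mock GW0742, null mock DMSO and WT mock DMSO means (6.77, 6.90 and 6.95) lay within 0.2 of each other. Acsl4 spanned 1.88 and Cd36 1.16. For both, and also for Fabp4, Fabp5 and Acsl5, the Hras arrays lay all above or all below the mock arrays. Fabp5 spanned 0.92, Acsl5 and Slc27a1 0.67 and 0.66, and Fabp3 0.43.

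The genes with patterns most like these over the 24 arrays are given as a description, since the arrays share groups. For Fabp4 they were Egln3 (Pearson r = 0.981), which encodes an oxygen-sensing prolyl hydroxylase, Sema7a (0.978) and Cryab (0.977). For Acsbg1 they were the spermine oxidase gene Smox (0.961), Grhpr (0.939) and Ehd4 (0.933). For Acsl4 they were Epcam (0.992), Rgs3 (0.991) and the sphingomyelin synthase gene Sgms2 (0.990), and for Cd36 Flrt1 (0.951), Cnn1 (0.949) and Prxl2b (0.949). Among the 8 genes Acsl4 and Acsl5 ran together (r = 0.924), as did Fabp4 and Acsbg1 (0.892), while Acsl4 and Fabp5 ran opposite (-0.928).

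Fabp5 and Fabp3 each had 2 probe sets, and the choice between them bears on their values. The brighter Fabp5 probe set averaged 13.23 and the other 11.78, and 19 of the 20 neighbouring probe sets by identifier of the brighter one belong to genes of chromosome 9, whereas Fabp5 lies on chromosome 3. For the dimmer one 16 of 20 neighbours lie on chromosome 3. The brighter Fabp3 probe set averaged 10.12 with 20 of 20 neighbours on chromosome 10, and the dimmer averaged 6.47 with 19 of 20 on chromosome 4, where Fabp3 lies. Whether the brighter ones read copies of these genes elsewhere was not tested, and their levels are therefore uncertain. On the dimmer Fabp5 probe set the GW0742 effect was 0.33 ± 0.07 in null Hras cells and 0.09 ± 0.07 in WT Hras cells.

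A probe set annotated to both Acsl3, a synthetase of lipid droplets, and Utp14b could not be assigned to either gene. It measured 9.92 to 9.94 in null mock GW0742 cells and 9.91 to 10.08 in null mock DMSO cells, and 10.41 to 10.53 in WT mock GW0742 cells and 9.37 to 9.46 in WT mock DMSO cells. Over all 34760 probe sets its GW0742 effect was -0.15 ± 0.06 in null Hras, 1.13 ± 0.06 in WT Hras, -0.06 ± 0.06 in null mock and 1.05 ± 0.06 in WT mock cells. In DMSO it was higher in null than in WT cells by 0.41 ± 0.06 with Hras and 0.57 ± 0.06 in mock cells. The genotype pattern in mock cells ran the same way as that of Acsbg1.

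**Figure D4:**
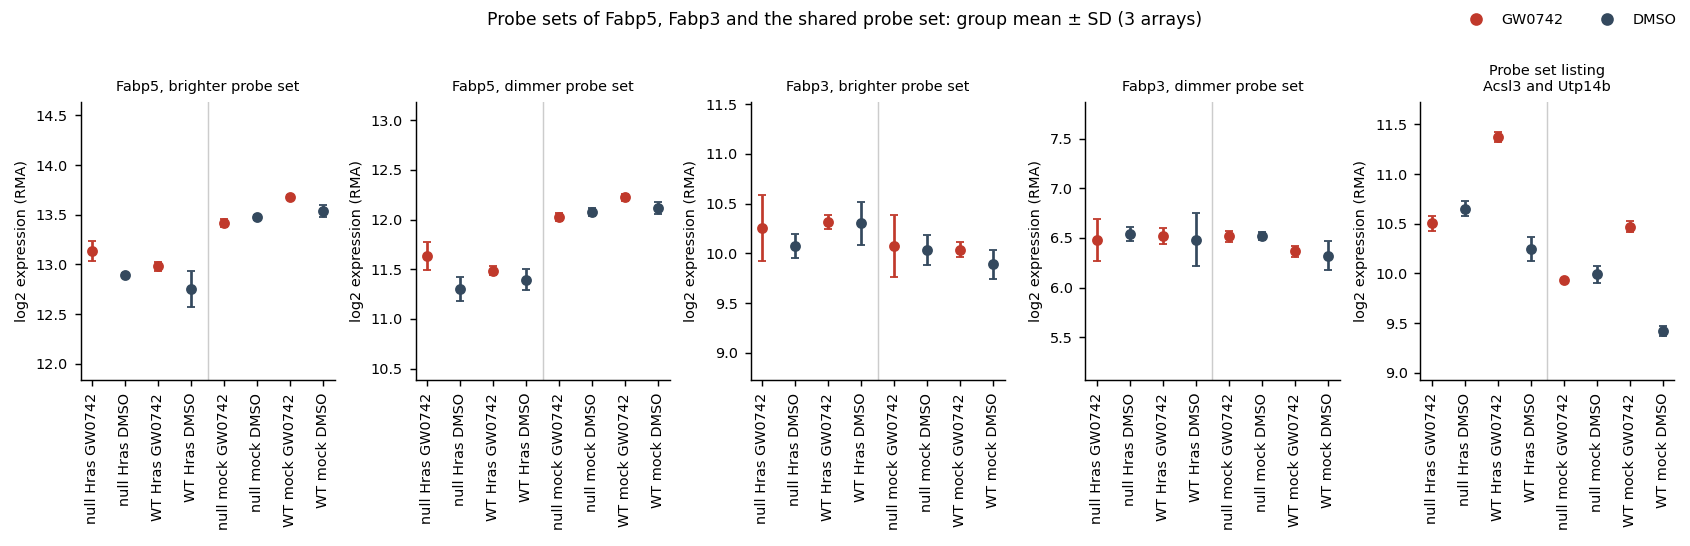
Group means ± SD (vertical axes, log2 expression, n = 3) of both probe sets of Fabp5 and of Fabp3 and of the probe set listing Acsl3 and Utp14b, in 8 groups along the horizontal axes, each panel spanning the same height in log2 units. Both Fabp5 probe sets sit lower in the Hras groups. The shared probe set sits at 11.37 in WT Hras GW0742 cells and 10.25 in WT Hras DMSO cells.

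Relatives of these genes were followed in 3 lists: 11 of 12 uptake, 18 of 19 binding and 13 of 13 activation genes were measured. With GW0742 in WT mock cells 0 uptake, 1 binding and 0 activation genes were called, all higher (1.25% of all genes), and 0 of any list in null mock cells (0%). The binding gene was Dbi, the acyl-CoA binding protein, at 0.18 ± 0.05 (adjusted p = 0.0272), a call lost in 5 of 6 refits with an array left out. In WT Hras cells 2 uptake, 1 binding and 1 activation gene were called higher and 0 lower (4.46% and 1.65% of all genes). The calls of Vldlr (0.28 ± 0.07, adjusted p up to 0.0889) and Acss2 (0.42 ± 0.10, adjusted p up to 0.0792) were each lost in 3 of 6 refits, both without WT Hras GW0742 replicate 2 or 3, Vldlr also without DMSO replicate 1 and Acss2 without DMSO replicate 3. In null Hras cells 1 uptake gene was called higher and 1 activation gene lower (3.51% and 1.51%). Slc27a4, which encodes the epidermal fatty acid transporter FATP4, rose by 0.42 ± 0.06 in null Hras cells (adjusted p = 0.000322) and by 0.63 ± 0.06 in WT Hras cells (adjusted p = 4.87e-07). The null call was not held with only the 6 arrays compared (adjusted p = 0.14). In mock cells its difference was -0.01 ± 0.06 in null and 0.10 ± 0.06 in WT cells. Dbi rose by 0.22 ± 0.05 in WT Hras cells and measured -0.08 ± 0.05 in null Hras cells.

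With Hras in DMSO, 4 uptake relatives were called higher and 3 lower in null cells, and 3 higher and 2 lower in WT cells. Over all genes 20.2% were higher and 20.5% lower in null cells, and 18.4% and 19% in WT cells. The WT counts of 11 lie near the background and the null counts somewhat above it. With a list this small the excess was not tested. Lpl, the lipase that frees fatty acids from lipoproteins, rose by 1.59 ± 0.11 in null and 0.59 ± 0.11 in WT cells. Of the binding relatives 1 was called higher and 7 lower in null cells, and 2 higher and 7 lower in WT cells. The retinoic acid carrier gene Crabp2 rose by 1.59 ± 0.10 in null and 1.42 ± 0.10 in WT cells. Rbp2, a retinol carrier gene, fell by 1.14 ± 0.15 in null and by 1.53 ± 0.15 in WT cells, and Scp2 fell by 0.70 ± 0.11 and by 0.67 ± 0.11. Crabp1 fell by 1.37 ± 0.09 in WT cells and measured 0.12 ± 0.09 in null cells. Of the activation relatives 1 was called higher and 2 lower in null cells, and 2 higher and 1 lower in WT cells, the largest being Acsf2 at -0.55 ± 0.10 in null cells.

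Between null and WT mock DMSO cells 0 uptake relatives were called higher and 2 lower, 3 binding relatives higher and 2 lower, and 2 activation relatives higher and 0 lower, where 4.89% of all genes were higher and 5.53% lower. The largest were Crabp1 (-0.85 ± 0.09) and Dbi (0.59 ± 0.05). Between null and WT Hras DMSO cells 4 uptake relatives were called higher and 1 lower, 3 binding relatives higher and 0 lower, and 1 activation relative higher and 1 lower, where 10.1% of all genes were higher and 9.32% lower. Rbp2 (0.91 ± 0.15), Slc27a6 (0.69 ± 0.10), Crabp1 (0.63 ± 0.09) and Lpl (0.58 ± 0.11) were the largest. The medians of the 3 lists lay between -0.09 and 0.11 in all 8 pairwise comparisons, which is near the median of all genes (-0.01 to 0.03).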

How the data were processed

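Total RNA from 24 samples was hybridised to Affymetrix Mouse Gene 1.0 ST arrays, 3 in each of 8 groups taken from the sample labels. The deposited values are log2 expression made by the authors with RMA, per the submitters' processing notes, and no value was missing. RMA adjusts arrays to a common distribution, so array medians span only 7.46 to 7.53. Precision is limited by having 3 arrays per group. Of 34760 probe sets, 21640 had 1 gene symbol, 1321 several and 11799 none in the platform annotation. The brightest probe set with 1 symbol stood for a gene, which gave 19937 genes.

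A model with 1 mean per group was fitted to all genes with limma 3.58.1 in R 4.3.3, with moderated variances (16 residual degrees of freedom), two-sided tests and Benjamini-Hochberg adjustment over all genes. It gave 8 pairwise comparisons and 4 differences between effects. The fit was tested on simulated data. Figures were drawn with matplotlib 3.10.9. Members and lists were chosen with earlier results of these data known. The text names all members, up to 4 called relatives per list and comparison with the largest changes, Pdk4 and Angptl4 for scale, and the 3 genes most correlated with each member spanning at least 1 log2 unit.

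Alternatives were array centring, leaving out the dimmest 40% of genes, trend and robust moderation, only the arrays compared, a replicate block, the mean of a gene's probe sets and leaving out each array. A model without the null Hras GW0742 arrays and the dimmer probe sets of Fabp3 and Fabp5 were added after seeing the data. Deviations of same-numbered arrays correlated at 0.144, 0.118 and 0.132 between null and WT mock DMSO cells, all above a chosen mark of 0.1. In the other 7 pairwise comparisons the correlations were not all above it. The labels state no pairing and correlations this low do not establish one. The tests were therefore unpaired, with the replicate block as an alternative.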

Additional observations from a re-analysis of the deposited data

Results flagged for a closer look

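Differences between effects that passed their own test are listed here as log2 values ± standard error from limma. Between genotypes, null minus WT, the GW0742 effect differed in Hras cells by -0.64 ± 0.16 for Fabp4, -0.85 ± 0.09 for Acsbg1 and -0.30 ± 0.06 for Dbi. In mock cells it differed by -0.68 ± 0.16 for Fabp4 and -1.85 ± 0.09 for Acsbg1. On the probe set listing Acsl3 and Utp14b it differed by -1.27 ± 0.09 in Hras cells and -1.11 ± 0.09 in mock cells. In WT cells, Hras minus mock, the GW0742 effect differed by 1.04 ± 0.16 for Fabp4, 0.53 ± 0.09 for Slc27a4, -0.37 ± 0.10 for Acsl5 and -0.57 ± 0.09 for Acsbg1.

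The Hras effect in DMSO differed between genotypes, null minus WT, for Acsbg1 by -0.52 ± 0.09. Among the relatives it differed by 1.49 ± 0.13 for Crabp1, 1.00 ± 0.15 for Lpl, 0.97 ± 0.14 for Slc27a6 and 0.54 ± 0.09 for Vldlr. It differed by -0.78 ± 0.13 for Acsf2, -0.44 ± 0.14 for Acss2 and -0.30 ± 0.06 for Dbi. The Acss2 call (adjusted p = 0.0406) was lost in 8 of 12 refits with an array left out, with adjusted p up to 0.131. For Slc27a6 the called Hras effects were 0.66 in null and -0.31 in WT cells, the WT call lost in 3 of 6 such refits.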

How the results depend on the processing

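No direction of a called result turned under any alternative run. Of the 8 genes, the number called for GW0742 in null Hras cells was 4, against 2 with centred arrays and 0 with only the arrays compared, where limma called 0 of all 19937 genes, against 887 with centred arrays and 1001 as reported. In that fit 4 of the 8 and 1763 of all genes had an unadjusted p under 0.05. In WT Hras cells it was 2 (1219 of all genes), against 4 of the 7 genes kept without the dimmest 40% of genes (1527 of all genes kept). With trend and robust moderation it was 4 (1472 of all genes), and both settings added Fabp5 and Slc27a1. The difference of the ligand effect between genotypes in Hras cells was called for 2 genes (344 of all genes), against 1 with only the arrays compared (103). With the replicate number as a block it was called for 1 gene in Hras cells (336 of all genes) and 1 in mock cells (179). The null against WT difference in Hras DMSO cells was then called for 0 (3882 of all genes). The block changed no other call of the 8 genes. With 1 array left out, the counts called of the 8 genes are given with the counts over all genes in brackets. For GW0742 they ranged from 1 to 4 in null Hras cells (393 to 2539) and 2 to 3 in WT Hras cells (821 to 1111). In null mock cells they ranged from 0 to 0 (0 to 2) and in WT mock cells from 2 to 2 (288 to 401). For Hras they ranged from 7 to 7 in null cells (7458 to 7800) and 7 to 8 in WT cells (6642 to 6882). For null against WT they ranged from 0 to 2 in Hras cells (2849 to 3815) and 1 to 1 in mock cells (1395 to 1904). For the differences of the GW0742 effect between genotypes they ranged from 1 to 2 in Hras cells (240 to 651) and in mock cells (114 to 162). Between Hras and mock in WT cells they ranged from 2 to 3 (286 to 482). For the Hras effect between genotypes they ranged from 1 to 2 (2669 to 3549). Some called changes near 0.24, those of Fabp5 and Acsbg1 with GW0742 in null Hras cells, were lost in 5 of 6 refits with an array left out. The Acsl4 fall with GW0742 in null Hras cells was lost in 4 of 6, while the Slc27a1 rise of 0.26 with Hras in null cells was lost in 0 of 6. The dim Cd36 signal limits what could be detected for that gene.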
